A study of Mus musculus with 12 samples.

Results

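Liver RNA of 12 female mice, 4 months old, was sequenced to compare fed and fasted livers with and without neurotensin, a gut hormone encoded by Nts. The mice were age-matched littermates on normal chow, either Nts+/+ (written WT in the labels) or Nts-/- (KO), and were fed ad libitum or fasted for 22 h, with 3 mice in each of the 4 groups. The Nts-/- mice lack the gene in the whole body, so liver was not the only tissue altered, and whole liver RNA holds the transcripts of every cell type of the organ. The 8 genes described here carry sugar into the hepatocyte and through glycolysis: Slc2a2, Gckr, Khk, Pfkl, Pfkfb1, Gapdh, Eno1 and Pklr. They were taken from the deposited table by gene symbol, with each symbol matching 1 row, and are 8 of its 48795 genes. All 8 passed the filter on low counts, and the lowest count of any of them in any mouse was 295.

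The liver takes up glucose through a transporter that also works in reverse, so that the organ both stores and releases sugar. Glycolysis then splits glucose to pyruvate, and in the liver it is most active after a meal and gives way to glucose production in fasting. Fructose enters by a separate kinase that bypasses the phosphofructokinase step, where glycolysis is most tightly controlled. Carbohydrate response element binding protein (Mlxipl) and sterol regulatory element binding protein (Srebf1) are the transcription factors best known for raising genes of sugar use and fat synthesis in the fed liver.

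Pklr, Khk and Gckr differ in what precedes their transcription starts, and their 250 bases upstream are shown because they hold the matches found among these 8 genes to the E-box, to the paired sites of a sugar response element, and 2 of the 3 matches to the HNF1 core. The sequences are those of RefSeq in GRCm38.p6 on the plus strand, and capitals mark the matches.

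Pklr, upstream of its downstream start, chr3:89136373-89136622: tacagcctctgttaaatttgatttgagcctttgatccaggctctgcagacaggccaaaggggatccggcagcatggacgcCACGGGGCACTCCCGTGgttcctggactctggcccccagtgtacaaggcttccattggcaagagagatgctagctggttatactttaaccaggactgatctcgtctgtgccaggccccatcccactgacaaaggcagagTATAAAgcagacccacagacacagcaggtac
Khk, chr5:30921309-30921558: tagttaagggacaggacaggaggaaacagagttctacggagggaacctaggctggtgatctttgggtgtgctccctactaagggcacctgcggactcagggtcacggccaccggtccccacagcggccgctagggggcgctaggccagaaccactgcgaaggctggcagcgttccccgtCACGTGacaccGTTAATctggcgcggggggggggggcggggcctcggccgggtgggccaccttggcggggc
Gckr, chr5:31297313-31297562: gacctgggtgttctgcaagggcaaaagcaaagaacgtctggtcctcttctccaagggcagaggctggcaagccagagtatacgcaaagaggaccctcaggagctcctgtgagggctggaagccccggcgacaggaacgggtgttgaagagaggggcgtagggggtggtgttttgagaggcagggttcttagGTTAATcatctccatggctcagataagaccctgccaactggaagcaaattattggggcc

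In Pklr, the capitals at chr3:89136453-89136469 are the pair CACGNG and CNCGTG 5 bases apart, the spacing of the sugar response element to which carbohydrate response element binding protein is known to bind. This pair begins at position -170 from the start and was found in 15 of 32851 RefSeq promoter windows of the mouse, or 0.0457%. The second run of capitals, TATAAA, begins at position -31 and occurs in 13.6% of windows. In Khk, CACGTG (7.15% of windows) begins at position -71 and GTTAAT, the HNF1 core (7.1% of windows), at position -60. In Gckr, GTTAAT begins at position -59.

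**Figure D1:**
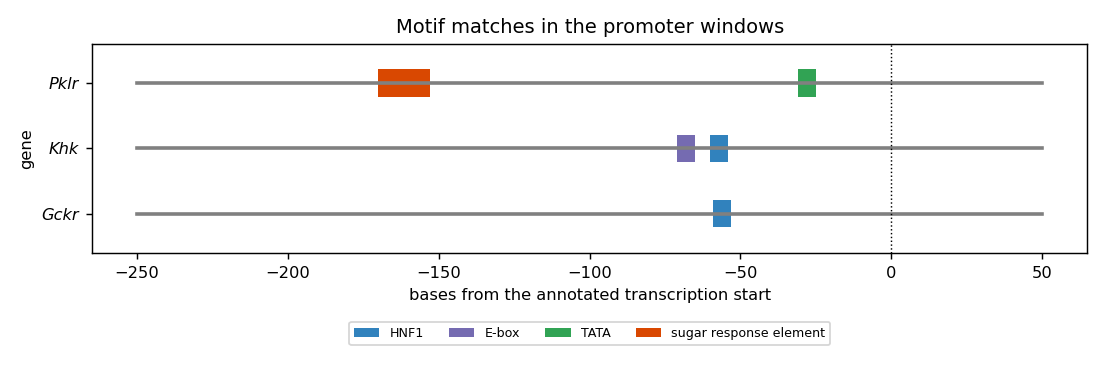
Motif matches in the promoter windows of Pklr, Khk and Gckr, with bases from the annotated RefSeq start on the x axis (negative values upstream) and coloured blocks for matches on either strand. Of the 3 lines, the Pklr line alone carries the sugar response element, at -170, and the HNF1 blocks of Khk and Gckr begin at -60 and -59.

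The search covered the 14 windows that RefSeq gives for the 8 genes, each from 250 bases before to 50 after a start, on both strands. Pfkfb1 held the only other matches, GTTAAT and TATAAA at positions -114 and -193 from the third of its 4 starts, and CAAAGTCCA, a core bound by HNF4, was found in 0 of the 14 windows and in 0.475% of all windows. No 2 of the matches overlapped. The deposited gene table places the start of Pklr 481 bases upstream of the start used here, which lies inside the gene and is the second of its 2 RefSeq starts. For Khk and Gckr the deposited gene starts lie 128 and 120 bases upstream of the RefSeq starts, so that the matches fall inside the gene as the deposited table draws it. The matches are descriptions of letters, and binding was not measured.

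The libraries held between 21999656 and 45273081 expected counts, with a median of 26230922. The deepest was that of fasted Nts-/- mouse 295, which also had the highest level of its group for each of the 8 genes. A part of depth in this was not tested. Levels are given as TMM-normalized CPM, counts scaled to the total of each library and to the bulk of its genes. Changes are log2 fold changes from edgeR's quasi-likelihood test over 13812 genes, and a gene was called at a Benjamini-Hochberg adjusted p under 0.05. Standard errors (SE) were derived as the absolute log2 fold change divided by the square root of that test's F statistic. The 95% intervals were built from the SE and a t quantile. The replicates are separate mice, so the error is the spread between mice of a group. Nts had 0 counts in all 6 libraries labelled Nts+/+, between 15 and 46 in the libraries labelled Nts-/- fed and between 4 and 18 in those labelled Nts-/- fasted. Each direction between genotypes is therefore that of the libraries as labelled, and an exchange of labels was not tested. Hepatocyte transcripts were high in every library, with the sum of Alb, Apoa1, Ttr, Tat, Cps1 and Serpina1c between 108756 and 139647 CPM, while Acta1 and Myh4 of skeletal muscle had 0 counts in all 12 mice.

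Fasted livers held less mRNA of the phosphofructokinase and pyruvate kinase of hepatic glycolysis and more of an enolase between them. In Nts+/+ livers, Pklr, Pfkl and Gckr fell and Eno1 rose. In Nts-/- livers, Pklr and Pfkl fell and Eno1 rose. The count of called genes was 4 of 8 in Nts+/+ livers, where 18.1% of all tested genes were called, and 3 of 8 in Nts-/- livers, where 16.8% were. All values of the fed mice lay on one side of all values of the fasted mice for 6 of the 8 genes in Nts+/+ livers, against 36% of all tested genes, and for 5 of the 8 in Nts-/- livers, against 35.2%. The median change over the 8 genes was -0.05 in Nts+/+ and 0.16 in Nts-/- livers, beside -0.003 and -0.01 over all tested genes, since members moved both ways.

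**Figure D2:**
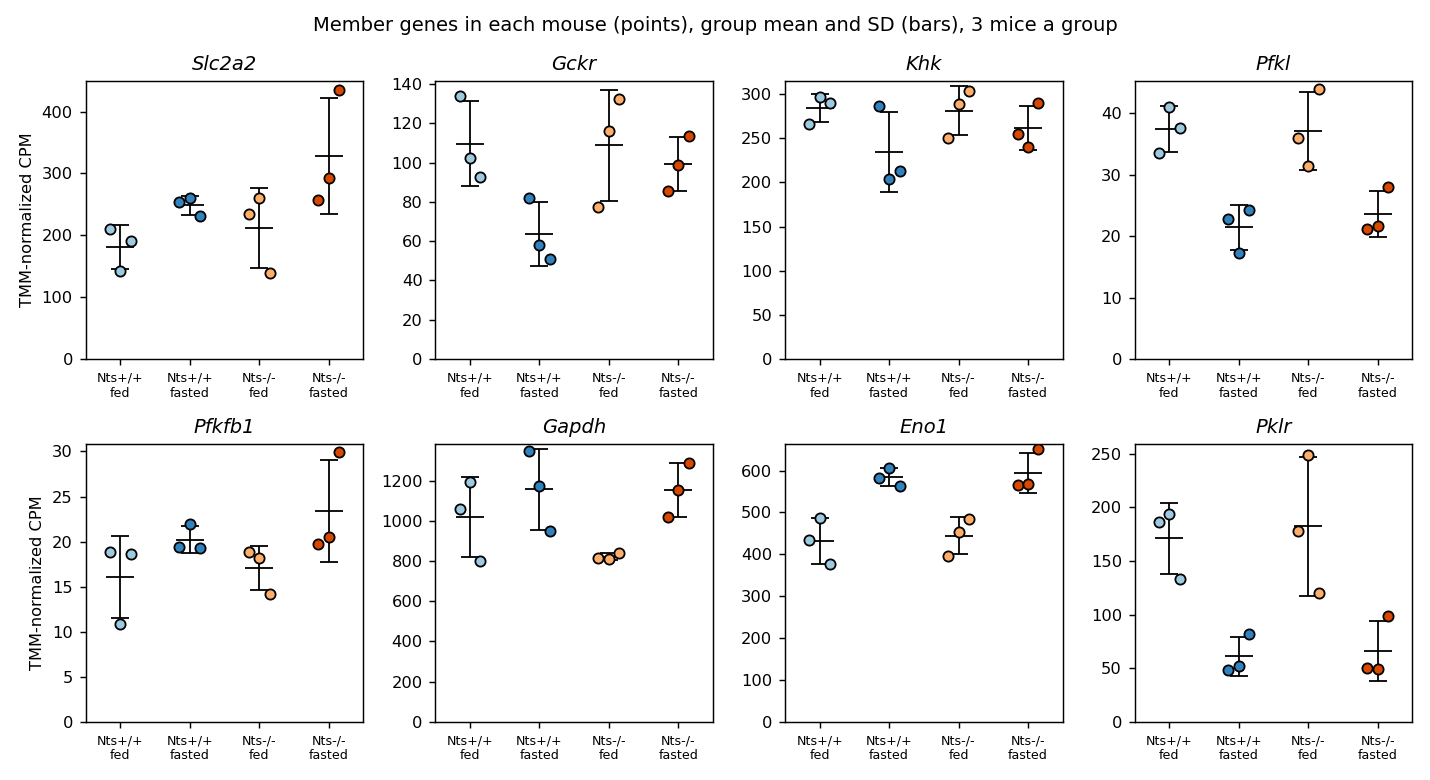
TMM-normalized CPM of the 8 genes in each mouse, with 1 panel per gene, the 4 groups on the x axis, points for mice and bars for the group mean and SD (3 mice a group; y axes start at 0 and differ between panels). The fasted points of Pklr and Pfkl lie below the fed points of the same genotype, those of Eno1 lie above them, and the Gckr points separate fed from fasted in Nts+/+ livers only.

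Pklr (ENSMUSG00000041237, GRCm38 chr3:89136142-89146784), the liver and red cell pyruvate kinase that makes pyruvate in the last step of glycolysis, had the largest fasting change of the 8 genes in both genotypes. Its level was 186, 194 and 133 CPM in fed Nts+/+ livers and 48.4, 52.2 and 82.1 CPM in fasted ones. The Nts-/- livers had 178, 249 and 120 CPM when fed and 50.2, 49.1 and 98.8 CPM when fasted. The lowest fed mouse stood above the highest fasted mouse in each genotype, and 1 fasted mouse in each (322 and 295) kept a higher level than the other two.
The log2 fold change was -1.49 (SE 0.346, adjusted p = 0.0140) in Nts+/+ livers, to 0.356 of the fed level, and -1.46 (SE 0.345, adjusted p = 0.0155) in Nts-/- livers, to 0.363 of it. In Nts+/+ livers 2.45% of tested genes had a lower log2 fold change than Pklr, and in Nts-/- livers 2.85% did. The call was lost without the filter on low counts (adjusted p = 0.05003 in Nts+/+ and 0.0556 in Nts-/-), without mouse 265 or 282 (0.0531 and 0.0640), and without mouse 303, 284 or 290 (0.0565, 0.0601 and 0.0637). Leaving out each mouse in turn gave changes of -1.77 to -1.34 in Nts+/+ and -1.87 to -1.16 in Nts-/- livers.

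Pfkl (ENSMUSG00000020277, chr10:77986947-78010083), the liver subunit of the phosphofructokinase that commits sugar to glycolysis, fell in both genotypes as well. It measured 33.6, 41.0 and 37.7 CPM in fed and 22.9, 17.3 and 24.2 CPM in fasted Nts+/+ livers. Its Nts-/- levels were 36.1, 31.4 and 44.0 CPM when fed and 21.1, 21.7 and 27.9 CPM when fasted. No fasted mouse of either genotype reached the lowest fed mouse. The log2 fold change was -0.80 (SE 0.166, adjusted p = 0.00535) in Nts+/+ livers and -0.65 (SE 0.165, adjusted p = 0.0161) in Nts-/- livers. In Nts+/+ livers it stayed past the threshold in all 6 fits that left out 1 mouse. In Nts-/- livers it was lost without mouse 319, 284 or 290 (adjusted p = 0.0509, 0.0752 and 0.0712).

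Pfkfb1 (ENSMUSG00000025271, chrX:150588229-150643878) encodes the liver form of the enzyme that makes and breaks down fructose 2,6-bisphosphate, the activator of phosphofructokinase. It measured 18.8, 10.9 and 18.6 CPM in fed and 19.4, 22.0 and 19.3 CPM in fasted Nts+/+ livers. The Nts-/- levels were 18.8, 18.1 and 14.2 CPM when fed and 19.7, 20.5 and 29.9 CPM when fasted. Fed and fasted mice did not overlap in either genotype, but 2 of the 3 fed Nts+/+ mice stood within 1 CPM of the lowest fasted one. The change did not pass the test, with a log2 fold change of 0.33 (SE 0.212, adjusted p = 0.305) in Nts+/+ and 0.46 (SE 0.211, adjusted p = 0.156) in Nts-/- livers. Without mouse 257 the Nts+/+ value was 0.11, and without mouse 295 the Nts-/- value was 0.24.

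Slc2a2 (ENSMUSG00000027690, chr3:28697903-28731359) encodes GLUT2, the main glucose transporter of the hepatocyte, which also carries fructose. Fed Nts+/+ livers had 211, 142 and 191 CPM and fasted ones 254, 260 and 230 CPM. Fed Nts-/- livers had 235, 261 and 139 CPM and fasted ones 258, 292 and 435 CPM. The groups did not overlap in Nts+/+ livers, and in Nts-/- livers 1 fed mouse (303) stood just above the lowest fasted mouse. The log2 fold change was 0.46 (SE 0.241, adjusted p = 0.211) in Nts+/+ and 0.63 (SE 0.241, adjusted p = 0.0900) in Nts-/- livers. Of the alternatives run, DESeq2's Wald test alone called it, in Nts-/- livers (adjusted p = 0.0396). Without mouse 295 the Nts-/- value was 0.38, and without mouse 257 the Nts+/+ value was 0.31.

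Gckr (ENSMUSG00000059434, chr5:31297443-31327314) encodes the glucokinase regulatory protein, an inhibitor that releases its partner enzyme when fructose 1-phosphate is present. Its level was 134, 102 and 92.4 CPM in fed and 82.2, 57.8 and 50.8 CPM in fasted Nts+/+ livers, without overlap. In Nts-/- livers it was 77.6, 116 and 133 CPM when fed and 85.8, 98.8 and 113 CPM when fasted, and the fasted mice lay within the range of the fed ones. The log2 fold change was -0.79 (SE 0.224, adjusted p = 0.0285) in Nts+/+ livers and -0.13 (SE 0.222, adjusted p = 0.733) in Nts-/- livers. The Nts+/+ call was lost without mouse 254, 257, 282 or 322 (adjusted p = 0.128, 0.0562, 0.113 and 0.0912), and the Nts-/- value turned to 0.04 without mouse 319.

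The difference of these responses, tested directly, did not pass: for Gckr the log2 fold change in Nts-/- livers minus that in Nts+/+ livers was 0.65, a smaller fall in Nts-/- livers (95% interval -0.02 to 1.33, adjusted p = 0.897). None of the 8 genes was called in this test, as were 0 of all tested genes (0%). An unadjusted p under 0.05 was reached by 663 genes, 0 of them members, and DESeq2 called 3 genes, 0 of them members. A response past the threshold in one genotype alone is therefore not shown to differ between genotypes for Gckr.

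Khk (ENSMUSG00000029162, chr5:30921431-30931248), ketohexokinase, phosphorylates fructose to fructose 1-phosphate as it enters hepatic metabolism. Its levels were 267, 297 and 290 CPM in fed and 286, 204 and 213 CPM in fasted Nts+/+ livers. The levels in Nts-/- livers were 251, 289 and 304 CPM when fed and 255, 240 and 290 CPM when fasted. The groups overlapped in both genotypes, and the log2 fold change was -0.28 (SE 0.148, adjusted p = 0.211) and -0.10 (SE 0.148, adjusted p = 0.678). The 95% interval was -0.60 to 0.04 in Nts+/+ and -0.42 to 0.21 in Nts-/- livers, so a change of the size seen for Pklr lies outside both.

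Eno1 (ENSMUSG00000063524, chr4:150236721-150248879), the enolase that makes phosphoenolpyruvate and serves both glycolysis and its reversal in glucose production, moved opposite to Pklr. Fed Nts+/+ livers had 433, 487 and 377 CPM and fasted ones 583, 607 and 563 CPM. Fed Nts-/- livers had 396, 454 and 484 CPM and fasted ones 566, 568 and 650 CPM. Every fasted mouse stood above every fed mouse, whatever its genotype. The log2 fold change was 0.43 (SE 0.135, adjusted p = 0.0397) in Nts+/+ and 0.42 (SE 0.135, adjusted p = 0.0477) in Nts-/- livers.
Both calls lie close to the threshold. In Nts+/+ livers the call was lost without mouse 265, 282, 322, 254 or 323 (adjusted p = 0.0708, 0.142, 0.0566, 0.123 and 0.112), with no count filter (0.0628) and with only the 6 mice compared (0.0745). In Nts-/- livers it was lost without mouse 284, 290, 295, 277 or 303 (0.0863, 0.0813, 0.152, 0.188 and 0.101), with no count filter (0.0799), with at least 10 counts in every mouse (0.0502) and with only the 6 mice compared (0.0837).

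Gapdh (ENSMUSG00000057666, chr6:125161715-125166467), glyceraldehyde-3-phosphate dehydrogenase, works in both directions like enolase and is often used as a reference gene. It measured 1061, 1196 and 803 CPM in fed and 1348, 1176 and 949 CPM in fasted Nts+/+ livers, which overlapped. The Nts-/- livers held 814, 809 and 841 CPM when fed and 1018, 1156 and 1292 CPM when fasted, which did not. The log2 fold change was 0.18 (SE 0.172, adjusted p = 0.502) in Nts+/+ and 0.49 (SE 0.173, adjusted p = 0.0666) in Nts-/- livers, and DESeq2 called the change in Nts-/- livers (adjusted p = 0.0212). The Nts+/+ value was 0.04 without mouse 323 and 0.31 without mouse 257. The 3 fed Nts-/- mice were close to one another, with a coefficient of variation of 2.10%, against 19.6% in the fed Nts+/+ mice.

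**Figure D3:**
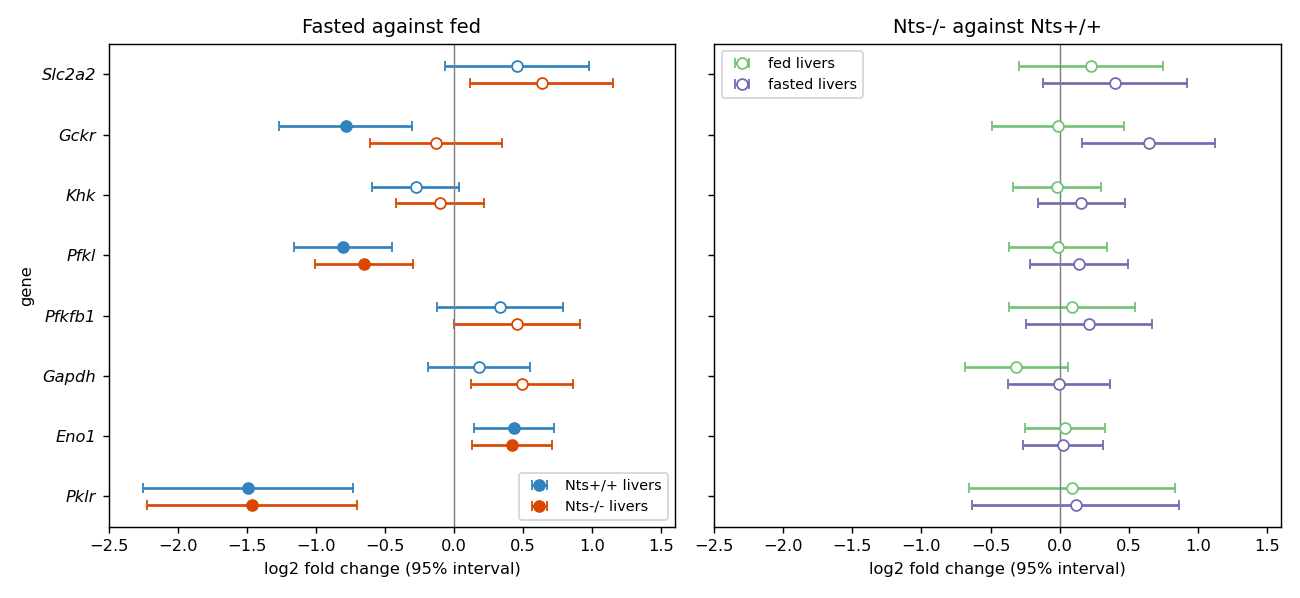
Log2 fold changes of the 8 genes with 95% intervals, fasted against fed in each genotype (left) and Nts-/- against Nts+/+ in fed and in fasted livers (right), with filled points at an adjusted p under 0.05. Pklr lies near -1.5 in both genotypes on the left (-1.49 and -1.46), and all points on the right are open, with Gckr in fasted livers at 0.64.

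With both genotypes averaged, 6 fasted mice were set against 6 fed mice in the same model, a comparison chosen after the data were seen. It called 6 of the 8 genes, against 32.8% of all tested genes. Fed and fasted mice did not overlap for 4 of the 8 genes (Pklr, Pfkl, Pfkfb1 and Eno1), against 15.9% of all tested genes. Pklr fell by 1.48 (SE 0.244, adjusted p = 0.00102), Pfkl fell by 0.73 (SE 0.117, adjusted p = 0.000407) and Eno1 rose by 0.43 (SE 0.0955, adjusted p = 0.00393). These 3 kept their call in all 12 fits that left out 1 mouse and in the other 5 settings tried.
Slc2a2 rose by 0.54 (SE 0.170, adjusted p = 0.0260), and lost the call without mouse 295, 282 or 257 (adjusted p = 0.0604, 0.0534 and 0.0631). Gckr fell by 0.46 (SE 0.157, adjusted p = 0.0398) and Gapdh rose by 0.34 (SE 0.122, adjusted p = 0.0477). Gckr kept its call in 4 and Gapdh in 3 of the 12 fits that left out 1 mouse, with adjusted p up to 0.112 for Gckr (without mouse 254) and 0.109 for Gapdh (without mouse 295). Pfkfb1, at 0.39 (SE 0.150, adjusted p = 0.0589), and Khk, at -0.19 (SE 0.104, adjusted p = 0.180), did not pass. Pfkfb1 passed in DESeq2 (adjusted p = 0.0402) and without mouse 284, 254 or 323 (0.0457, 0.0483 and 0.0468), and Khk passed without mouse 265 (0.0494).

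Between genotypes, none of the 8 genes was called, in fed or in fasted livers, and the same held for all tested genes (0% called in each). In fed livers 876 genes had an unadjusted p under 0.05 and DESeq2 called 12, with 0 members among either. In fasted livers 685 genes had an unadjusted p under 0.05, among them 1 member, Gckr, and DESeq2 called 4 genes, 0 of them members.
In fasted livers Gckr was higher in all 3 Nts-/- mice (85.8 to 113 CPM) than in the 3 Nts+/+ mice (50.8 to 82.2 CPM), a log2 difference of 0.64 (SE 0.223, 95% interval 0.16 to 1.13) that did not pass the correction (adjusted p = 0.917). It was the only member whose groups did not overlap, where 12.2% of all tested genes had groups that did not overlap. Leaving out each mouse in turn gave 0.51 to 0.87.

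The intervals show how large a genotype difference these mice could still hold. For Pklr they reach from -0.66 to 0.83 in fed and from -0.63 to 0.87 in fasted livers, around estimates of 0.09 and 0.12. For Slc2a2 the estimates were 0.23 (-0.29 to 0.75) in fed and 0.40 (-0.12 to 0.92) in fasted livers. The fed value was 0.04 without mouse 303 and 0.45 without mouse 319, and the fasted value was 0.15 without mouse 295. Pfkl was at -0.01 (-0.36 to 0.34) and 0.14 (-0.22 to 0.50), and Pfkfb1 at 0.09 (-0.37 to 0.54) and 0.21 (-0.24 to 0.67).
Khk and Eno1 had narrower intervals. Khk stood at -0.02 (-0.33 to 0.30) in fed and 0.16 (-0.16 to 0.47) in fasted livers, and Eno1 at 0.04 (-0.25 to 0.33) and 0.03 (-0.26 to 0.32). Gapdh was at -0.31 (-0.68 to 0.06) in fed and -0.003 (-0.37 to 0.37) in fasted livers, and Gckr in fed livers at -0.01 (-0.49 to 0.47). In fed livers 0 of the 8 genes had groups that did not overlap, against 10.7% of all tested genes.

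Compared per kilobase of the Ensembl canonical transcript, the 8 genes spanned a wide range of levels. In fed Nts+/+ livers Gapdh stood at 718 ± 141 CPM per kb (SD, n = 3), followed by Eno1 at 189 ± 23.9 and Khk at 172 ± 9.57. Eno1 and Khk did not differ beyond their spread. Pklr (49.9 ± 9.68), Gckr (48.2 ± 9.53) and Slc2a2 (32.5 ± 6.35) formed a middle tier, in which Pklr and Gckr did not differ beyond their spread. Pfkl (9.13 ± 0.905) and Pfkfb1 (8.60 ± 2.42) were lowest and likewise within each other's spread.
In Nts+/+ livers the order within the middle tier differed after fasting, with Slc2a2 (44.6 ± 2.84 CPM per kb) above Gckr (28.0 ± 7.24) and Pklr (17.8 ± 5.38). In fed Nts-/- livers the ranges of mean ± SD of Pklr (53.2 ± 18.9), Gckr (47.9 ± 12.4) and Slc2a2 (38.0 ± 11.5) overlapped. In fasted Nts-/- livers Slc2a2 (58.9 ± 16.8) and Gckr (43.7 ± 6.10) stood above Pklr (19.3 ± 8.28). The ranges of mean ± SD of Slc2a2 and Gckr overlapped there. Pfkfb1, at 10.8 ± 0.814 and 12.5 ± 3.03 CPM per kb, was above Pfkl, at 5.23 ± 0.903 and 5.75 ± 0.921, in the fasted livers of both genotypes. These spreads are between mice, while the genes of a mouse share a library. Overlapping spreads therefore do not show equal levels, and levels per kilobase were not compared within each mouse.

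Ratios within a mouse are free of its library size. The log2 ratio of Pklr to Eno1 CPM lay between -1.50 and -1.22 in fed and between -3.59 and -2.78 in fasted Nts+/+ livers. In Nts-/- livers it lay between -2.01 and -0.87 when fed and between -3.53 and -2.72 when fasted, so fed and fasted mice stood apart in each genotype. The log2 ratio of Pfkl to Pfkfb1 CPM was between 0.79 and 1.92 in the 6 fed mice and between -0.35 and 0.33 in the 6 fasted mice. The log2 ratio of Gckr to Slc2a2 CPM was between -1.04 and -0.47 in fed and between -2.18 and -1.63 in fasted Nts+/+ livers, while in Nts-/- livers the fed range, -1.60 to -0.07, took in 2 of the 3 fasted mice (-1.94 to -1.57).

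Across the 12 mice, Pfkfb1 and Slc2a2 varied together most closely of the 28 pairs of members, with Pearson's r = 0.920 of log2 CPM, and 0.864 after the group means were taken out. Pklr and Pfkl had r = 0.822 over all mice and 0.134 within groups, so that nearly all of their likeness was that of the feeding states. Gckr and Khk had 0.801 and 0.664, and Eno1 and Gapdh 0.755 and 0.709. These are descriptions over 12 mice that share feeding states and genotypes, and within groups each rests on 3 mice a group.
Of all tested genes, the 2 most like each member by the same r over 12 mice were Them7 (0.959) and the fructose transporter Slc2a5 (0.946) for Slc2a2, Hyi (0.938) and Mtch1 (0.898) for Gckr, and Akr1c13 (0.924) and Pecr (0.913) for Khk. For Pfkl they were Sec61b (0.983) and Pepd (0.981), for Pfkfb1 Slc2a2 itself and Pafah2 (0.920 each), and for Pklr Msh6 (0.969) and Zbp1 (0.967). For Eno1 they were Vps53 (0.958) and Slc25a39 (0.941), and for Gapdh Agt (0.894) and Rad23b (0.889).

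Other enzymes of glycolysis moved in both directions. Of 19 listed genes 17 were tested, and in Nts+/+ livers 4 rose and 1 fell, while in Nts-/- livers 4 rose and 2 fell. Of all tested genes 18.1% were called in Nts+/+ and 16.8% in Nts-/- livers. The 4 that rose (Aldoa, Pfkfb2, Bpgm and Ldha) and Pkm, which fell, were called in both genotypes, and the median change of the list was 0.10 and 0.15.
Ldha, the lactate dehydrogenase subunit that interconverts pyruvate and lactate, measured 790, 883 and 1033 CPM in fed and 1651, 1481 and 1781 CPM in fasted Nts+/+ livers. The Nts-/- values were 755, 554 and 1024 CPM when fed and 1855, 1599 and 1889 CPM when fasted. Each fasted liver stood above each fed liver, and Ldha rose by 0.86 (adjusted p = 0.00947) and 1.20 (adjusted p = 0.00135) in Nts+/+ and Nts-/- livers.
Pfkfb2, a relative of Pfkfb1 best known from heart, rose by 1.00 (adjusted p = 0.00711) from 4.86 ± 0.41 to 9.69 ± 0.68 CPM (SD, n = 3) in Nts+/+ livers and by 0.70 (adjusted p = 0.0391) in Nts-/- livers. Aldoa, the aldolase of muscle and many other tissues, rose by 0.54 (adjusted p = 0.0243) and 0.59 (adjusted p = 0.0171).

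Pkm, the pyruvate kinase of most tissues other than liver, fell by 0.61 (adjusted p = 0.0111) and 0.46 (adjusted p = 0.0412), from a level of 20.6 ± 2.76 CPM in fed Nts+/+ livers. Of 4 listed hexokinases 3 were tested, and 1 was called in each genotype. The shares called over all tested genes were 18.1% in Nts+/+ and 16.8% in Nts-/- livers. Hk3, known from myeloid cells, fell by 1.47 (adjusted p = 0.00228) and 0.89 (adjusted p = 0.0326), and Hk1 (-0.59, adjusted p = 0.0524, and -0.28) and Hk2 (-0.69, adjusted p = 0.133, and -0.50) did not pass.
Summed markers of Kupffer and endothelial cells were lower in fasted livers of both genotypes. Sums of lymphocyte and erythroid markers overlapped between fed and fasted livers, and those of cholangiocyte markers overlapped in Nts+/+ livers only. Of the Kupffer and endothelial markers, Clec4g was called in both genotypes (-1.15 and -1.08) and Clec4f in Nts+/+ livers alone (-0.86). The others were not called, with Pecam1 at -0.18 and -0.22 and Adgre1 at -1.05 and 0.01. The summed level of all 4 Kupffer cell markers was 244 to 276 CPM in fed and 121 to 199 CPM in fasted Nts+/+ livers, and 161 to 225 against 142 to 159 CPM in Nts-/- livers. The sum of 4 endothelial markers was 118 to 172 against 91.8 to 100 CPM in Nts+/+ and 131 to 148 against 92.0 to 112 CPM in Nts-/- livers, and no defining marker of either list was at 0. The sum of 4 stellate cell markers was 207 to 229 against 171 to 196 CPM in Nts+/+ livers, and in Nts-/- livers the ranges overlapped, at 177 to 227 against 181 to 191 CPM. The part of these cells in the falls of Hk3 and Pkm was not tested, and in whole liver fewer cells of a type and less RNA per cell cannot be told apart.

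Of the 8 listed enzymes of fructose, polyol and related sugar metabolism, all 8 were tested. In Nts+/+ livers 2 fell and 0 rose, while in Nts-/- livers 1 fell and 1 rose. The shares called over all tested genes were 18.1% and 16.8%. Akr1b3, the aldose reductase that begins the conversion of glucose to fructose by way of sorbitol, fell by 0.68 (adjusted p = 0.00608) and 0.86 (adjusted p = 0.00141). Tkfc, which phosphorylates the glyceraldehyde made from fructose 1-phosphate, rose by 0.79 (adjusted p = 0.0190) in Nts-/- livers and stood at 0.61 (adjusted p = 0.0584) in Nts+/+ livers. Fggy fell by 0.76 (adjusted p = 0.0197) in Nts+/+ livers and stood at -0.42 (adjusted p = 0.172) in Nts-/- livers. The mitochondrial aldehyde dehydrogenase Aldh1b1 did not pass, with -0.94 (adjusted p = 0.207) and -1.16 (adjusted p = 0.131).
Of 10 further sugar transporters 7 were tested, and in Nts+/+ livers Slc2a1 (GLUT1) rose by 0.65 (adjusted p = 0.0330) and Slc2a9, a urate and sugar transporter, fell by 0.49 (adjusted p = 0.0378). Of the 7, 0 were called in Nts-/- livers, with Slc2a1 at 0.10 (adjusted p = 0.776) and Slc2a9 at -0.46 (adjusted p = 0.0520). Over all tested genes 18.1% were called in Nts+/+ and 16.8% in Nts-/- livers. Slc2a8 (-0.39 and -0.18) and Slc2a13 (-1.37 and -1.44) did not pass in either genotype.

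Among 18 tested regulators of sugar response and hepatocyte identity, 2 rose and 3 fell in Nts+/+ livers, and 1 rose and 2 fell in Nts-/- livers. Beside them stand 18.1% and 16.8% of all tested genes, and the Nts-/- count was near that share. Mlxipl, the factor known for binding the element printed in the Pklr promoter, measured 175, 135 and 80.9 CPM in fed and 42.1, 30.7 and 37.2 CPM in fasted Nts+/+ livers. Its levels in Nts-/- livers were 105, 103 and 103 CPM when fed and 46.9, 62.5 and 38.8 CPM when fasted. Fed and fasted mice did not overlap, and Mlxipl fell by 1.83 (adjusted p = 0.000549) and 1.07 (adjusted p = 0.0107).
Srebf1 fell by 2.90 (adjusted p = 0.000622) and 3.32 (adjusted p = 0.000254). Txnip, a gene that sugar is known to induce by way of the same element, moved opposite to Pklr and rose by 1.21 (adjusted p = 0.0262) and 1.73 (adjusted p = 0.00544). Hif1a, known for raising glycolytic genes in low oxygen, rose by 0.49 (adjusted p = 0.0137) in Nts+/+ livers and stood at 0.26 (adjusted p = 0.160) in Nts-/- livers. None of the pathway genes in these 5 lists was called between genotypes, in fed or fasted livers, or in the difference of the responses.

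**Figure D4:**
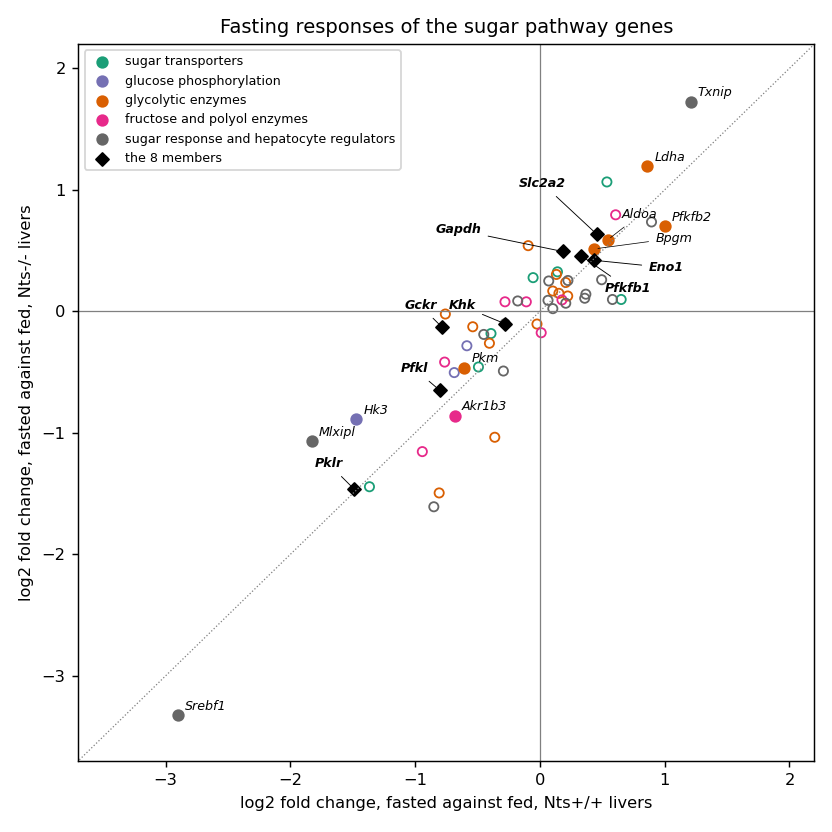
Log2 fold changes of fasted against fed livers in Nts+/+ (x axis) and Nts-/- mice (y axis) for the tested genes of the 5 pathway lists (circles, filled and named where called in both genotypes) and for the 8 genes (diamonds). The dotted line marks equal change, Srebf1 lies lowest at -2.90 and -3.32, Pklr lies at -1.49 and -1.46, and Gckr lies off the line at -0.79 and -0.13.

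Genes commonly used to tell a fasted from a fed liver moved with the labels. Of 8 listed, 4 were called in Nts+/+ and 5 in Nts-/- livers, and in Nts+/+ and Nts-/- livers Fgf21 rose by 2.96 and 2.97 and Cpt1a by 1.53 and 1.67. The lipogenic genes Scd1 and Fasn changed by -3.38 and -3.63, and by -1.93 and -2.96.

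Some members share sequence with other rows of the table. Expected counts of Pklr, Eno1 and Gapdh were not whole in any of the 12 mice, as happens where reads fit more than one gene, while those of the other 5 members were whole in all 12 mice. The copies Gapdhs, Gapdh-ps14 and Gapdh-ps15 held 1 to 18, 0 to 1 and 0 counts in a mouse, and the Eno1 copy Eno1b held 14.8 to 66.5. Copies under other symbols were not searched, so the levels of these 3 genes are uncertain to that extent. No strand setting is given in the sources used here, so reads of antisense genes cannot be told apart.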

How the data were processed

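Liver RNA of 12 mice in 4 groups of 3 was sequenced, with groups taken from the labels. The authors deposited 1 table of expected counts, estimates of the reads of each gene that are not scaled between mice, made with Trimmomatic and RSEM on GRCm38 according to the submitters' processing notes, and versions, annotation and strand are not given in the sources used here. Columns of other samples number 0. Counts were rounded.

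In R 4.3.3, robust quasi-likelihood tests of edgeR 4.0.16 compared group means of all 12 mice over the 13812 genes that passed filterByExpr, after TMM normalization (biological coefficient of variation 0.202). Benjamini-Hochberg adjustment ran over all tested genes. Correlations used log2 CPM with a prior count of 2. Lengths were those of Ensembl canonical transcripts in GENCODE vM39. Promoters were those of RefSeq in GRCm38.p6. The steps were tested on simulated data.

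The 8 genes and the lists (glucose phosphorylation, glycolytic enzymes, sugar transporters, fructose and polyol enzymes, sugar response and hepatocyte regulators, fasting check, cell type markers) were chosen with earlier results of these data known. In each list the 4 genes at most with the smallest p for fasting in Nts+/+ livers are named, Bpgm was named after its values were seen, and some genes of the pathway are not reported here.

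Alternatives were RLE size factors, DESeq2 1.42.0, keeping genes of low count, requiring 10 counts in all mice, fitting the mice compared alone, and leaving out each mouse. The average of both genotypes, and normalization without the 20 genes of highest total count, were added after the data were seen.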

Additional observations from a re-analysis of the deposited data

How the results depend on the processing

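Of 656 values of the 8 genes under an alternative, 557 kept their direction and their side of the threshold, 51 lost and 7 gained a call, and 41 changed sign. None of the sign changes was in a value past the threshold, and the cause was not tested. The 4 calls for fasting in Nts+/+ livers became 2 with no count filter and 1 to 4 with 1 mouse left out (fewest without mouse 282). The 3 calls in Nts-/- livers became 5 with DESeq2, 1 with no count filter and 0 to 3 with 1 mouse left out (0 without 284 or 290). DESeq2 called 2788 of all tested genes in Nts-/- livers, against 2326 in the main fit. The 6 calls over both genotypes became 7 with DESeq2 and 3 to 6 with 1 mouse left out (fewest without 282). Here DESeq2 called 4706 of all tested genes, against 4524. All-gene counts under the other settings are not given here, so these shifts are not read as particular to the 8 genes. With fewer mice the spread rests on fewer samples. Between genotypes the calls among the 8 genes were 0 under all alternatives.

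Gapdh between genotypes in fasted livers turned to 0.0034 with RLE, 0.0035 with DESeq2, 0.012 with at least 10 counts and 0.0057 without the 20 genes of highest total count. With each mouse left out, the log2 difference between genotypes in fed livers ranged from -0.18 to 0.19 for Gckr, -0.21 to 0.32 for Pklr, -0.15 to 0.093 for Pfkl, -0.13 to 0.21 for Pfkfb1, -0.076 to 0.063 for Khk and -0.049 to 0.13 for Eno1. In fasted livers it ranged from -0.30 to 0.39 for Pklr, -0.0016 to 0.24 for Pfkl, -0.0085 to 0.32 for Pfkfb1, -0.044 to 0.062 for Eno1 and -0.13 to 0.11 for Gapdh. The difference of the fasting responses ranged from -0.38 to 0.33 for Pklr, -0.091 to 0.34 for Pfkfb1, -0.073 to 0.37 for Slc2a2 and -0.11 to 0.074 for Eno1, and Gckr fasted against fed in Nts-/- livers from -0.32 to 0.037.

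No paired analysis was run, because the labels number each mouse but do not give its litter. Litter was therefore not part of the model.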
